A study of Mus musculus with 4 samples.

Results

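The genes described here are 7 oncofetal genes, Lin28b, Igf2bp1, Igf2bp2, Igf2bp3, Hmga2, Igf2 and H19, out of 35842 mouse genes with coordinates. They were chosen by name, as genes known for activity in embryos and in tumours, with earlier results of these data known. The questions were which classes of fetal mammary nuclei are open at these genes and whether adult nuclei keep any of that openness. The assay was single-nucleus ATAC-seq, in which a transposase cuts accessible DNA, so every level below is a number of reads from accessible chromatin and not an amount of RNA. Nuclei came from mammary gland cells of CD1 mice, labelled WT, sorted as EpCAM+ (an epithelial surface protein) and Lin- (without markers of blood and other lineages). Fetal nuclei were taken at E18, embryonic day 18, and adult nuclei at 8 weeks, with 2 libraries labelled as biological replicates at each stage. The labels do not say how many animals were pooled in a library, so p-values measure the spread between these libraries only. Each nucleus carries the class number, 1 to 14, that the authors deposited.

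LIN28B is an RNA-binding protein that blocks the maturation of let-7 microRNAs, which in turn repress messenger RNAs including those of Hmga2, Lin28b and the IGF2BP family. IGF2BP1, IGF2BP2 and IGF2BP3 are RNA-binding proteins that stabilise and localise messenger RNAs such as that of Igf2. HMGA2 is a chromatin architectural protein of stem and progenitor cells, IGF2 is a fetal growth factor, and H19 is a long non-coding RNA and microRNA host next to Igf2 at an imprinted locus.

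The starts of 3 members show the main patterns below: Igf2bp3 low in every adult class, Hmga2 partly kept in adult basal-like and luminal progenitor-like nuclei, and Igf2bp2 kept in mature luminal-like nuclei. Their 250 bases before the annotated start (RefSeq, GRCm38.p6, minus strand, written 5′ to 3′) lie at chr6:49214955-49215204 for Igf2bp3, chr10:120476470-120476719 for Hmga2 and chr16:22163300-22163549 for Igf2bp2. Capitals mark matches on either strand to GGGCGG, the core of a GC box, to CCAAT, the CCAAT box, and to the repeat TCTCTCTC, which was chosen after the Hmga2 sequence had been seen.
Igf2bp3: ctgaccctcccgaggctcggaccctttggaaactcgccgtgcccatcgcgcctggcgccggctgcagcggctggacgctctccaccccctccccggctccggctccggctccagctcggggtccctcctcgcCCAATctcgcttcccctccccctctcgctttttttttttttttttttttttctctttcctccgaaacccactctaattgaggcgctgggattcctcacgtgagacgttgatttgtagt
Hmga2: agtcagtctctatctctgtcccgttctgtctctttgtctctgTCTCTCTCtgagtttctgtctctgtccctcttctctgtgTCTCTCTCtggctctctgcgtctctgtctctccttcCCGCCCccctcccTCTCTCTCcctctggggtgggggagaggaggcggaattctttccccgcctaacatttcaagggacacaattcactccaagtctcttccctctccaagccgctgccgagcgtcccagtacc
Igf2bp2: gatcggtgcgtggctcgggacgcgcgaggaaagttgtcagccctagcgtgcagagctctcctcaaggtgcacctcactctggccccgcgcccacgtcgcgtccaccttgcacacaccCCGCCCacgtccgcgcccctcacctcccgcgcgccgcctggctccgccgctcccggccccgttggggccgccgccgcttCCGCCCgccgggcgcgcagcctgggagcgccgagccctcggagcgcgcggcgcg
The Igf2bp2 window had a GC content of 77.2% with 40 CpG, against 60.4% with 21 CpG for Igf2bp3 and 56.4% with 8 CpG for Hmga2. The median over 32851 annotated promoter windows of the same length was 52.4% with 6 CpG. GGGCGG stood in 32.7% of all those windows, CCAAT in 33.8% and TCTCTCTC in 3.26%, and the marked letters did not overlap between motifs. ACAAAG, the core of a SOX site, was in 16.5% of windows and matched once in Hmga2, and TGANTCA, the AP-1 site, was in 6.75% and matched in none of the 3. A match describes the letters only.

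The libraries held 882 and 1695 fetal nuclei with 6028168 and 15801908 reads, and 2465 and 2804 adult nuclei with 13588107 and 19304830 reads. No barcode was shared between libraries, and between 57.8% and 62.62% of reads lay in the deposited regions. A class was called by a cell type where at least 3 of a fixed list of marker genes were raised and no other cell type's list reached 3 (the list of genes shared by all epithelium aside). By that rule classes 1, 8, 4 and 12 were basal-like, 3, 7, 9 and 5 luminal progenitor-like, and 2 and 11 mature luminal-like. Class 6 was stromal-like, with all 6 stromal markers raised and 0 of 4 epithelial ones, although the cells were sorted as EpCAM+, and classes 10, 13 and 14 stayed unnamed. Classes 4, 5, 9, 12 and 13 were almost entirely fetal, class 6 came from both stages (23 and 33 fetal, 82 and 75 adult nuclei), and the rest were almost entirely adult. The classes were clustered from the same reads, so levels by class are described and not tested, and no doublet caller was run on them.

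All 7 genes were more accessible in fetal than in adult mammary nuclei when reads were summed over the whole gene with 2 kb on either side. H19 differed most, 4.10-fold, followed by Igf2bp1 at 3.03-fold and Igf2bp3 at 2.59-fold. Hmga2 was 1.95-fold higher, Igf2 and Igf2bp2 1.69-fold, and Lin28b 1.42-fold. In the test across 31122 genes (edgeR's quasi-likelihood test with Benjamini-Hochberg adjustment), 22.9% of genes were called at an adjusted p below 0.05 and 11.0% were called higher in fetal. The sparse DNA between the listed regions 10 to 50 kb outside each gene was also higher in fetal, by 1.26-fold at Igf2bp2 to 1.92-fold at Hmga2. The gain of the Hmga2 span was close to that of its surroundings, and the Lin28b span gained less than its surroundings (1.65-fold), whereas the other 5 members exceeded theirs (1.26-fold at Igf2bp2, 1.31-fold at Igf2bp3, 1.33-fold at Igf2bp1, 1.35-fold at Igf2 and 1.84-fold at H19). The part of this wider difference in the span results was not tested.

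**Figure D1:**
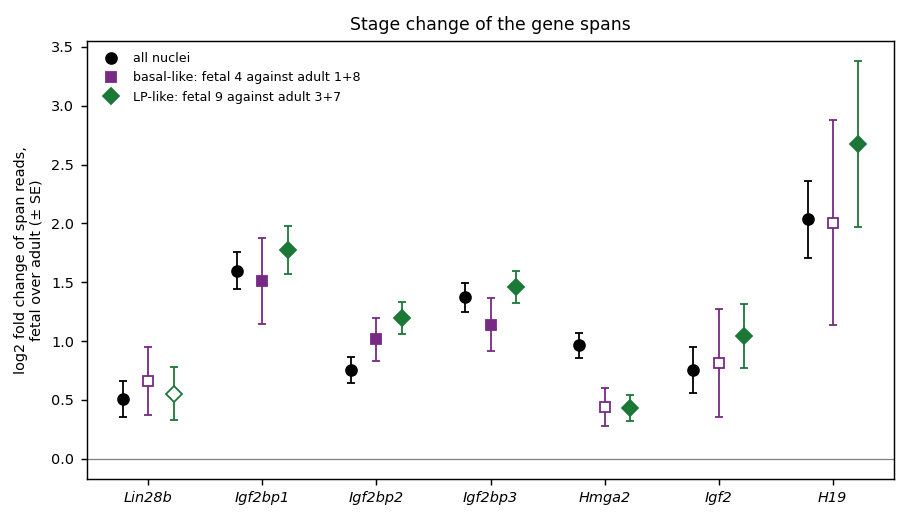
Log2 fold change (fetal over adult, with standard error) of reads over each gene with 2 kb on either side, for all nuclei, for the basal-like and for the luminal progenitor-like comparison. Filled symbols passed the adjusted threshold; all 21 values lie above 0, from 0.43 for Hmga2 in luminal progenitor-like nuclei to 2.68 for H19 in the same nuclei.

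Lin28b lies at chr10:45376617-45486314 (mm10 coordinates throughout). Its span held 35.3 and 37.1 reads per 1000000 reads of the same nuclei (RPM) in the fetal libraries and 24.3 and 25.6 RPM in the adult ones. The stages did not overlap, and the log2 difference was 0.51 ± 0.15 (SE; edgeR adjusted p = 0.0174). This call rested on 2 libraries: the adjusted p was 0.052 without adult replicate 1 and 0.16 without fetal replicate 2. Within 500 bases of its 5′ end, at position 45486314, the level was 17.1 and 14.1 RPM in fetal and 10.4 and 10.6 RPM in adult nuclei (log2 0.53 ± 0.19, edgeR adjusted p = 0.0289, lost without any 1 of the 4 libraries, under DESeq2, by midpoint counting, with scaling by total reads, with no filter on low counts and within 250 bases). Thus the Lin28b start, unlike that of Igf2bp3, was an open region at both stages: counted by read midpoints, it stood 133.0-fold above the level per kb of the surrounding DNA in fetal and 150.3-fold above it in adult nuclei. Among fetal classes it was most open in luminal progenitor-like class 5 (24.5 RPM, 95% exact Poisson interval 19.8 to 29.9), against 4.04 to 14.4 RPM in the other fetal classes. Intervals here and below treat each read as independent. Small read counts were mostly even, so reads may not be independent and the true intervals may be wider. Adult basal-like (10.3 RPM), luminal progenitor-like (8.64 RPM) and mature luminal-like nuclei (13.1 RPM) overlapped in their intervals with fetal classes 4, 12 and 13. Within the luminal progenitor-like classes, however, the adult interval (6.90 to 10.7) lay below those of fetal class 9 (12.1 to 17.1) and class 5. Adult classes 6 and 10 held 3.00 and 5.52 RPM. A second annotated start, 16113 bases inside the gene, was weak at both stages (1.99 and 2.85 RPM in fetal, 1.03 and 0.622 RPM in adult).

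Reads over let-7 genes, the microRNAs that LIN28B controls, are given because the 2 neighbours on chromosome 15 moved against the members. Their mature sequences, with the seed in capitals, share a seed with others of the family: 10 distinct mature RNAs from 12 genes carry it (RefSeq, GRCm38.p6).
mmu-let-7b-5p: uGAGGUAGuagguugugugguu
mmu-let-7c-5p: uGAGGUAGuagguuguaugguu
Mirlet7b with 2 kb on either side held 5.47 and 6.77 RPM in fetal and 21.6 and 19.7 RPM in adult libraries. Its neighbour Mirlet7c-2 held 2.32 and 3.48 RPM in fetal and 16.3 and 14.2 RPM in adult libraries. Both were lower in fetal, by -1.75 ± 0.22 and -2.34 ± 0.28 on the log2 scale (edgeR adjusted p = 2.75e-06 and 1.33e-06), and their windows share reads, so they are not independent. By class, Mirlet7b was at 5.34 to 8.07 RPM in fetal classes other than 13 and at 11.8 to 25.5 RPM in adult ones. Unnamed fetal class 13 stood apart at 18.8 RPM (interval 10.9 to 30.1), with 6.81 and 24.5 RPM in its 2 libraries. The other let-7 and miR-98 genes tested did not pass the test, and neither did the rest of the LIN28 and let-7 list apart from Lin28a (0.83, higher), Ago2 (-0.35) and Tut7 (-0.40, both lower). Of the 21 genes of that list tested, 1 was called higher and 4 lower, with a median log2 difference of -0.04 against 0.005 over all genes. These 5 calls are close to the 22.9% called among all genes.

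Igf2bp3 had the largest stage difference of a start called at a 5′ end among the members. The gene lies at chr6:49085218-49215469, and its span held 120.9 and 117.6 RPM in fetal and 43.9 and 46.0 RPM in adult libraries (log2 1.37 ± 0.12, edgeR adjusted p = 2.69e-08). The window at its 5′ end, position 49215469, held 27.0 and 25.5 RPM in fetal and 1.84 and 1.92 RPM in adult libraries. This is a 13.7-fold difference (log2 3.78 ± 0.23, edgeR adjusted p = 5.7e-58), in a test of 29796 start windows of which 22.4% were called and 11.2% were called higher in fetal. Of all tested windows, 85.8% had a lower fetal level and 17.0% a lower adult level than this one. The start printed above, 515 bases inside the gene, gave 21.9 and 19.3 RPM against 1.91 and 1.76 RPM (log2 3.46 ± 0.25). Against its surroundings per kb, the 5′ window stood 68.0-fold higher in fetal and 5.55-fold higher in adult nuclei, so the start was not wholly at the level of the DNA around it in the adult. D030074P21Rik and Malsu1 overlap the gene, and reads cannot be divided between them.

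Every fetal class was open at the Igf2bp3 start, and no adult class reached the lowest of them. Luminal progenitor-like classes 9 and 5 were highest, at 31.1 RPM (27.6 to 34.8) and 28.8 RPM (23.8 to 34.7). Class 13 held 21.0 RPM, basal-like classes 12 and 4 held 20.7 and 17.9 RPM, and stromal-like class 6 held 16.1 RPM (6.97 to 31.8) from 8 reads. The intervals of classes 9 and 4 do not overlap, while those of class 9 and class 5 do. In adult nuclei the level was 1.96 RPM (0.979 to 3.51) in basal-like, 1.83 RPM (1.09 to 2.89) in luminal progenitor-like and 1.80 RPM (1.16 to 2.65) in mature luminal-like classes. Adult class 14 had 0 reads, which allows up to 4.35 RPM by the same interval, and adult classes 6 and 10 had 3 reads each. The 3 adult lineages were therefore indistinguishable at this depth.

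**Figure D2:**
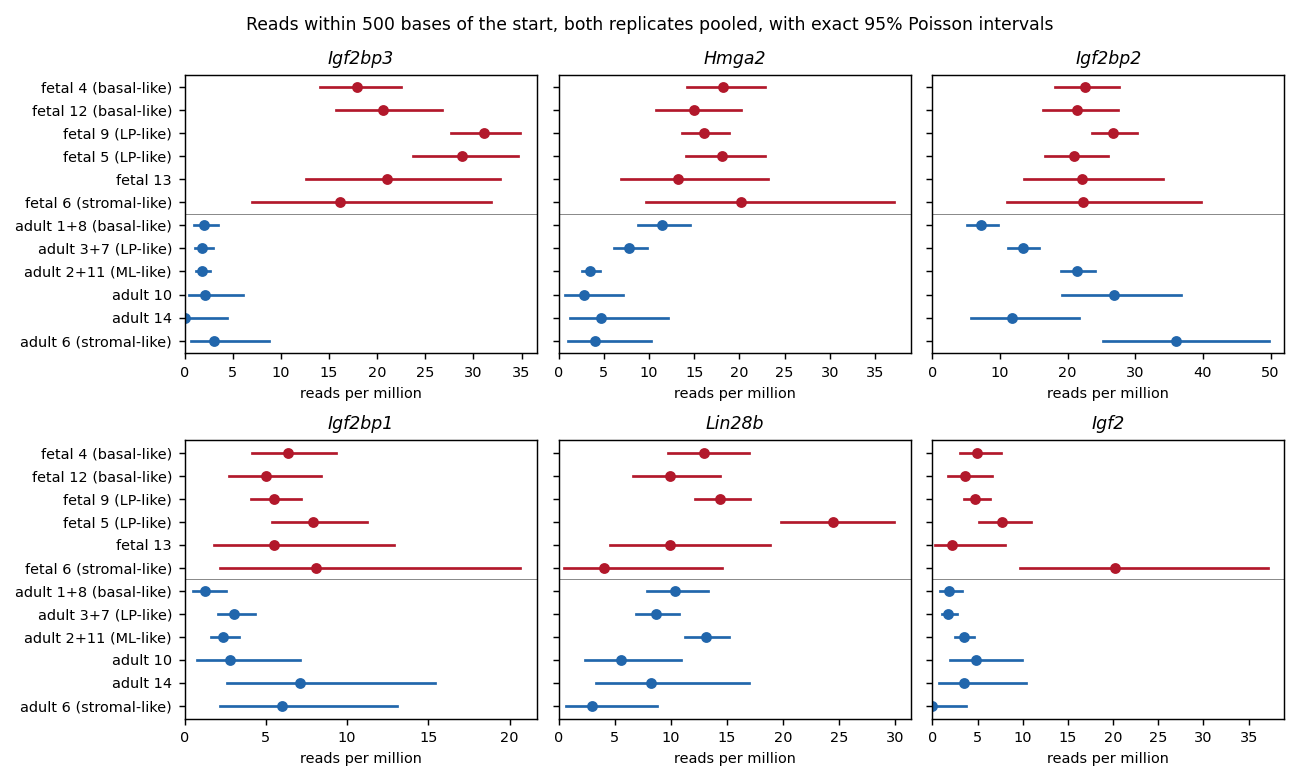
RPM (x axis) within 500 bases of the start of 6 members by class of nuclei (y axis; fetal red, adult blue; LP, luminal progenitor; ML, mature luminal), both libraries pooled, with exact 95% Poisson intervals that cover counting error only and treat reads as independent. At Igf2bp3 all fetal classes lie between 16.1 and 31.1 and adult classes between 0 and 3.00, while at Igf2bp2 the adult mature luminal-like classes (21.4) lie within the fetal range of 20.9 to 26.8.

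Igf2bp1, at chr11:95957163-96005944, changed in the same direction at a lower level. Its span held 59.9 and 45.9 RPM in fetal and 16.8 and 16.9 RPM in adult libraries (log2 1.60 ± 0.16, edgeR adjusted p = 1.12e-07). Its start, taken as the end at 96005944 that holds a deposited promoter region, held 8.46 and 5.13 RPM in fetal and 2.94 and 2.38 RPM in adult libraries (log2 1.29 ± 0.34, edgeR adjusted p = 0.00136, not called without fetal replicate 1). Fetal classes lay at 4.99 to 8.07 RPM with overlapping intervals, so none of them stood apart. Adult basal-like nuclei held 1.25 RPM (0.502 to 2.57) and luminal progenitor-like nuclei 3.05 RPM (2.06 to 4.35), with overlapping intervals. Adult class 14 held 7.07 RPM (2.60 to 15.4) and adult class 6 held 5.996 RPM (2.20 to 13.1), within the fetal range, from 6 reads each. By span, fetal class 9 (73.7 and 52.6 RPM) was above fetal class 4 (28.8 and 35.7 RPM) in both replicates.

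Igf2bp2, at chr16:22059009-22163299, kept much of its start in the adult, and unequally across lineages. Its span held 158.8 and 160.7 RPM in fetal and 96.0 and 88.9 RPM in adult libraries (log2 0.76 ± 0.11, edgeR adjusted p = 2.28e-05). By span, fetal class 5 held 111.8 and 103.5 RPM, below class 12 (138.2 and 139.1), class 9 (173.1 and 174.4) and class 4 (179.2 and 196.6). Adult mature luminal-like nuclei held 100.3 and 104.0 RPM, basal-like 107.7 and 83.9 RPM and luminal progenitor-like 84.8 and 63.0 RPM. Adult class 6 held 196.5 and 178.2 RPM, within the fetal range. The start held 26.5 and 22.9 RPM in fetal and 18.3 and 15.9 RPM in adult libraries (log2 0.51 ± 0.16, edgeR adjusted p = 0.00704). That call was lost without adult replicate 2, without fetal replicate 1 and within 250 bases of the start. At the start, fetal classes were alike, at 20.9 to 26.8 RPM. Adult mature luminal-like nuclei held 21.4 RPM (19.04 to 24.0), class 10 held 26.9 RPM and stromal-like class 6 held 36.0 RPM (25.2 to 49.8), from 52.1 and 24.2 RPM in its 2 libraries. Adult luminal progenitor-like nuclei held less, 13.3 RPM (11.1 to 15.8), and basal-like nuclei least, 7.13 RPM (5.09 to 9.71). By these intervals the mature luminal-like and stromal-like classes lay above luminal progenitor-like nuclei, and those above basal-like ones. The 2 adult libraries differed in basal-like nuclei, at 1.24 and 9.51 RPM.

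Hmga2, at chr10:120361268-120476469, kept its adult openness in some lineages and not in others. Its span held 237.6 and 223.3 RPM in fetal and 117.3 and 113.0 RPM in adult libraries (log2 0.97 ± 0.11, edgeR adjusted p = 4.37e-07). Within the adult gland, basal-like nuclei held 169.0 and 174.7 RPM and luminal progenitor-like nuclei 172.4 and 170.0 RPM, against 60.2 and 48.6 RPM in mature luminal-like nuclei. The first 2 lineages did not differ beyond their spread and lay at the level of fetal class 13 (173.6 and 171.6 RPM). Fetal classes 4, 5 and 9 were higher, from 214.8 to 269.4 RPM. At the start, fetal classes held 13.3 to 20.2 RPM. Adult basal-like nuclei held 11.4 RPM (8.79 to 14.6) and luminal progenitor-like nuclei 7.83 RPM (6.18 to 9.78), with overlapping intervals. Mature luminal-like nuclei lay below both, at 3.45 RPM (2.54 to 4.57). Adult classes 10, 6 and 14 held 2.76 RPM (0.752 to 7.07), 4.00 RPM (1.09 to 10.2) and 4.72 RPM (1.29 to 12.1), from 4 reads each. Their intervals overlap those of both luminal lineages. Over all nuclei the start window held 20.9 and 14.9 RPM in fetal and 6.84 and 5.80 RPM in adult libraries (log2 1.46 ± 0.21, edgeR adjusted p = 1.48e-10). Since mature luminal-like classes hold 1002 and 1074 of the adult nuclei and no class of fetal nuclei was mature luminal-like, the mix of lineages moves with this stage difference. 1700006J14Rik, 9230105E05Rik, Gm40783, Gm51785 and Mir763 overlap the Hmga2 span.

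**Figure D3:**
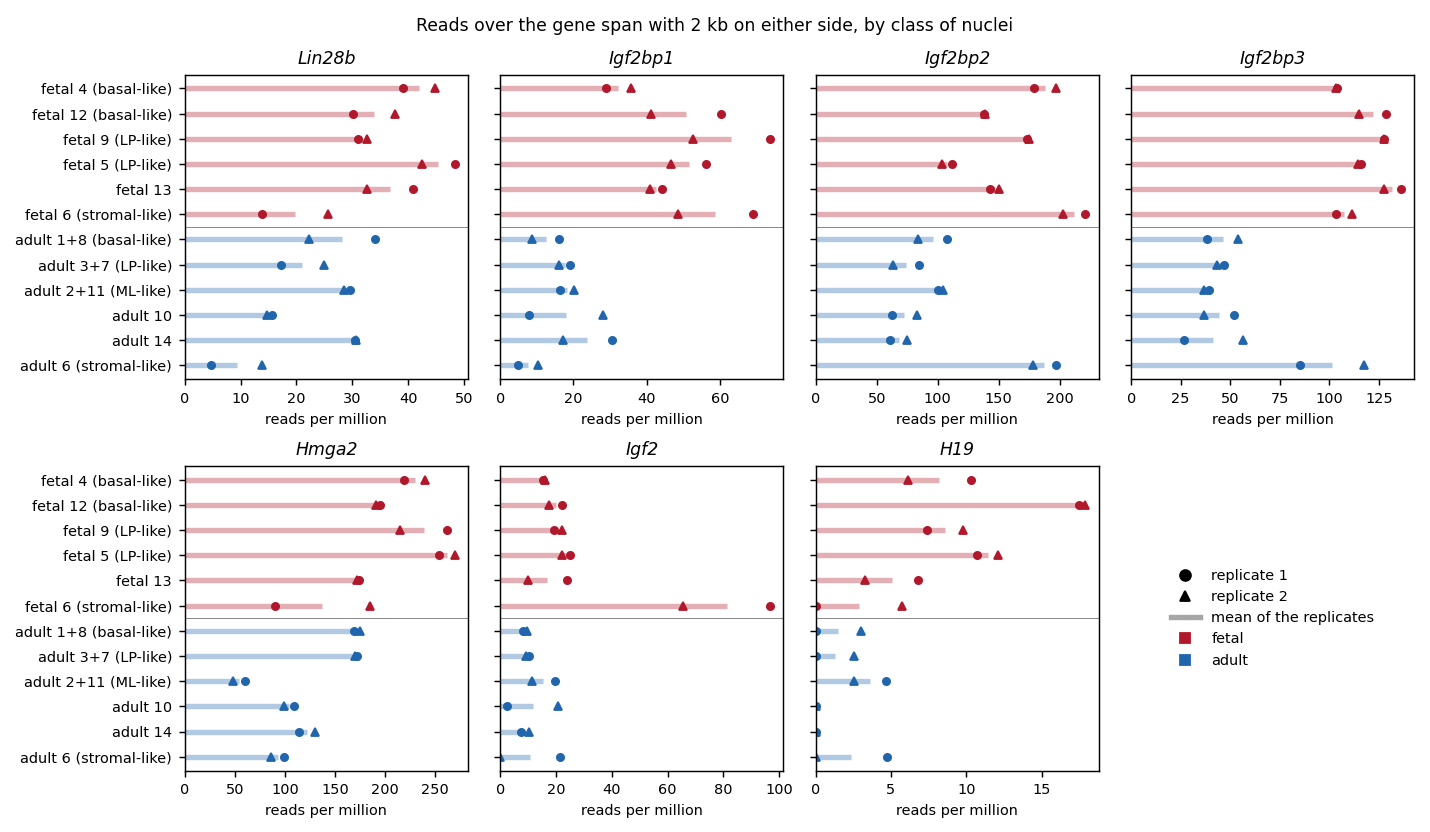
RPM (x axes, each from 0) over each gene with 2 kb on either side, by class of nuclei (y axis), with a circle for replicate 1, a triangle for replicate 2 and a bar to their mean. Hmga2 reads in adult basal-like and luminal progenitor-like nuclei (169.0 to 174.7) lie far above mature luminal-like ones (48.6 and 60.2), and Igf2 peaks in fetal stromal-like class 6 (96.7 and 65.6).

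Igf2, at chr7:142650768-142666816, was most accessible in the fetal stromal-like nuclei of class 6. Its span held 22.1 and 20.6 RPM in fetal and 14.1 and 10.6 RPM in adult libraries (log2 0.76 ± 0.20, edgeR adjusted p = 0.00595, and 0.061 without adult replicate 2). Fetal class 6 held 96.7 and 65.6 RPM, against 9.81 to 25.0 RPM in each library of the other fetal classes. Adult class 6 held 21.3 and 0 RPM, against 2.59 to 20.7 RPM in each library of the other adult sets. Igf2 has 4 annotated starts, and the one at 142658804 carried most reads: 5.47 and 5.32 RPM in fetal and 2.72 and 2.49 RPM in adult libraries (log2 1.04 ± 0.35, edgeR adjusted p = 0.0175). At that start, fetal class 6 reached 20.2 RPM (9.68 to 37.1) from 10 reads, against 2.21 to 7.65 RPM in the other fetal classes. Adult class 6 had 0 reads, which allows up to 3.69 RPM. Adult basal-like and luminal progenitor-like nuclei held 1.78 and 1.73 RPM there. Adult mature luminal-like nuclei held 3.45 RPM (2.54 to 4.57), which overlapped fetal classes 4, 9, 12 and 13 in their intervals. Adult classes 10 and 14 held 4.83 and 3.54 RPM from 7 and 3 reads. This start was no longer called without class 6, under DESeq2, within 250 or 1000 bases, or without any library other than fetal replicate 1. The starts at 142657496 and 142661271 did not pass the test, and the fourth had too few reads to be tested. Igf2os and Mir483 overlap Igf2, and their reads cannot be separated.

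H19, at chr7:142575530-142578146, had the largest stage ratio and the fewest reads of the members by span. Its span held 9.29 and 10.2 RPM in fetal and 2.13 and 2.49 RPM in adult libraries (log2 2.04 ± 0.33, edgeR adjusted p = 6.05e-05), from 56 and 161 reads against 29 and 48. Its start, taken as the end at 142578146 because Mir675 inside the gene lies on the minus strand, held 3.82 and 3.35 RPM in fetal and 0.883 and 1.04 RPM in adult libraries (log2 1.85 ± 0.49, edgeR adjusted p = 0.00154). The other end of the gene held 1.66 and 2.15 RPM in fetal and 0.147 and 0.207 RPM in adult libraries, from 2 and 4 adult reads. It reached the filter on mean reads only through its fetal reads, so it is given without a test. Basal-like fetal class 12 was highest by span, at 17.5 and 17.9 RPM, above 0 to 12.1 RPM in each library of the other fetal classes. At the start, class 12 held 7.48 RPM (4.63 to 11.4) and class 5 held 5.10 RPM, while classes 13 and 6 had 0 reads, which allows up to 4.07 and 7.44 RPM. Adult basal-like nuclei held 1.43 RPM (0.616 to 2.81) there and mature luminal-like nuclei 1.44 RPM (0.877 to 2.22). Both overlapped fetal classes 4 (0.847 to 3.86) and 9 (1.87 to 4.14). Adult luminal progenitor-like nuclei held 0.407 RPM (0.111 to 1.04). Igf2 and H19, although neighbours, had their highest span levels in different fetal classes. H19 in class 6 rests on 2 span reads (4.04 RPM, 0.489 to 14.6), and that interval overlaps the one of class 12 (13.2 to 23.5). In the stretch just upstream of H19, where the imprinting control region of the locus is known to lie, the listed region at chr7:142579930-142580929 held 3.65 and 2.47 RPM in fetal and 2.50 and 2.44 RPM in adult libraries. These stages overlapped (log2 0.26 ± 0.42, edgeR adjusted p = 0.66), and the region was chosen after its values were seen. The next listed region upstream, at chr7:142581214-142582213, held 1.66 and 2.66 RPM in fetal and 1.10 and 1.09 RPM in adult libraries, without overlap, and did not pass the test (log2 1.04 ± 0.53, edgeR adjusted p = 0.123).

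**Figure D4:**
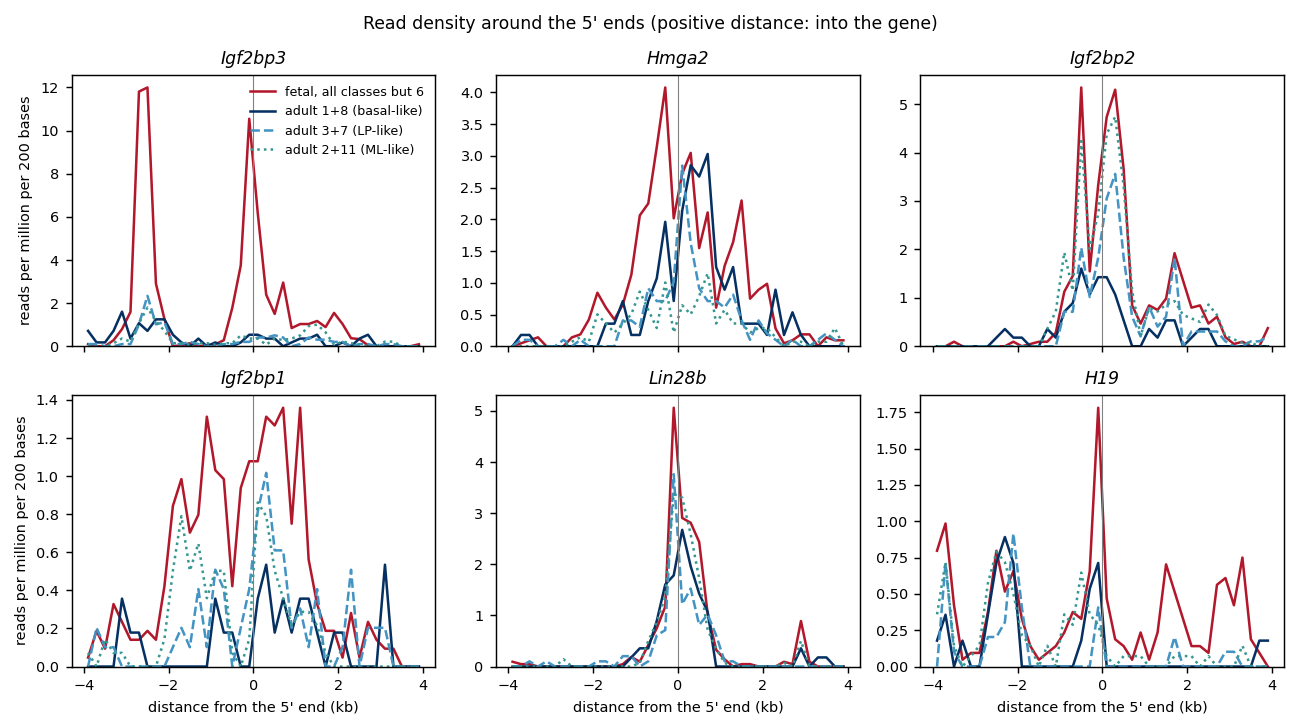
Read density (RPM per 200 bases) against distance from the 5′ end (kb; positive into the gene) for 6 members, in fetal nuclei of all classes but 6 and in 3 sets of adult nuclei. At Igf2bp3 the fetal peak at the 5′ end has only a low counterpart in each adult set, at Igf2bp2 and Lin28b the adult sets keep a peak, and H19 has a low fetal peak at its 5′ end.

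On the deposited promoter regions, 18570 of which were tested, 21.5% were called and 10.5% were called higher in fetal. Members held 6 of these regions, and 4 were called higher in fetal: those of Igf2bp3 (10.6 and 9.05 RPM against 2.43 and 2.02 RPM), of Igf2bp1 and both of Hmga2. The Igf2bp1 region and the weaker of the Hmga2 regions were not called without fetal replicate 1, and the latter also not without adult replicate 2 or fetal replicate 2, under DESeq2 or by midpoint counting. The Igf2bp2 region, at 20.4 and 17.9 RPM against 16.3 and 12.1 RPM, missed the threshold (log2 0.43 ± 0.17, edgeR adjusted p = 0.0555). It passed with only regions of at least 50 reads tested, by midpoint counting, without class 6 and without adult replicate 1 (edgeR adjusted p = 0.0331, 0.0361, 0.0253 and 0.0462). At the H19 ends, the Igf2 starts at 142657496 and 142658804 and the Lin28b 5′ end, the authors' lists give distal regions.

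Within a lineage, fetal classes 4 and 9 still differed from adult nuclei at the IGF2BP genes, while the Hmga2 difference shrank. Fetal classes 12 (basal-like) and 5 (luminal progenitor-like) were not part of these tests. Over Igf2bp2, class 5 held 111.8 and 103.5 RPM, between class 9 (173.1 and 174.4) and adult luminal progenitor-like nuclei (84.8 and 63.0). Over H19, class 12 held 17.5 and 17.9 RPM, above class 4 (10.3 and 6.11). In basal-like nuclei (fetal class 4 against adult classes 1 and 8), 5.92% of 24156 genes were called and 2.72% were called higher in fetal. Igf2bp1, Igf2bp2 and Igf2bp3 were called there, by 1.51 ± 0.36, 1.01 ± 0.18 and 1.14 ± 0.22 on the log2 scale (edgeR adjusted p = 0.0111, 0.000922 and 0.00206). The Igf2bp1 call was lost under DESeq2, without adult replicate 2 and without fetal replicate 2. Hmga2 (0.44, edgeR adjusted p = 0.106), Lin28b (0.66, 0.191), Igf2 (0.82, 0.332) and H19 (2.00, 0.185) did not pass. H19 had 10 and 19 fetal and 0 and 12 adult reads there. Hmga2 passed there when only genes with a mean of at least 50 reads were tested (0.50, edgeR adjusted p = 0.0455). In luminal progenitor-like nuclei (fetal class 9 against adult classes 3 and 7), 15.9% of 26772 genes were called and 7.6% were called higher in fetal. All members but Lin28b (0.55, edgeR adjusted p = 0.096) were called, with Igf2bp1 at 1.77 ± 0.20, Igf2bp3 at 1.46 ± 0.14, Igf2bp2 at 1.20 ± 0.14 and Hmga2 at 0.43 ± 0.11. Igf2 (1.04, 10.4 and 9.33 RPM in adult) and H19 (2.68, 0 and 2.53 RPM in adult) rest on 48 to 147 and 0 to 65 reads per library, and both calls were lost under DESeq2 and without fetal replicate 2. H19, which was called with no filter on reads as well (edgeR adjusted p = 0.000257), was also lost without adult replicate 1, and Hmga2 without fetal replicate 1. The test of the difference between the lineages, added after the data had been seen, called 5.25% of 25787 genes. None of the members was among them, with differences of -0.41 to 0.08 on the log2 scale and edgeR adjusted p of 0.5177 to 0.9881.

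Around the members, more distal regions were called higher than lower in fetal nuclei. Of the 122865 distal regions tested, 34.9% were called and 15.9% were called higher in fetal, with a median log2 difference of -0.04. Of 119 regions in the members or within 50 kb of them, 96 could be tested, 42 were called higher in fetal and 2 lower, with a median of 1.04. Hmga2 had 10 higher of 18 tested, Igf2bp2 12 of 27, Igf2bp3 8 of 22, Igf2bp1 5 of 10, H19 4 of 8, Lin28b 2 of 4 and Igf2 1 of 8. Regions high only in fetal libraries pass a filter on mean reads through those libraries, so these counts are no support for the direction. The regions named below by the fixed rule were picked for the size of their called difference, so their differences describe those regions only. The 6 named at Igf2bp3 and Hmga2 with the largest differences were also called with no filter on reads.

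Of the Igf2bp3 regions named by the fixed rule, 3 lay close to its start. The region upstream at chr6:49217352-49218351 held 34.5 and 27.5 RPM in fetal and 5.74 and 4.82 RPM in adult libraries (log2 2.55 ± 0.21, edgeR adjusted p = 4.08e-11). It was open in every fetal class shown (26.2 to 29.7 RPM in classes 4, 6 and 9) and lower in the adult, at 4.99 RPM in basal-like, 5.69 RPM in luminal progenitor-like and 5.10 RPM in mature luminal-like nuclei. Adult class 14 held 11.8 RPM (5.65 to 21.7) from 10 reads, and adult class 10 had 0 reads. The regions at 4967 and 8870 bases into the gene fell from 7.63 and 6.08 RPM to 0.442 and 0.570 RPM and from 9.79 and 12.5 RPM to 0.442 and 0.932 RPM in the adult. These differences were 3.70 ± 0.44 and 3.97 ± 0.37 on the log2 scale (edgeR adjusted p = 5.63e-08 and 4.7e-10). Farther in, the region at chr6:49144583-49145582 went from 4.15 and 2.72 RPM to 0.81 and 0.104 RPM (log2 2.98 ± 0.63).

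A region 118726 bases into Igf2bp3, at chr6:49096244-49097243, behaved differently; it and the other regions named in this paragraph were chosen after their values were seen. It held 19.2 and 16.0 RPM in fetal and 16.4 and 17.7 RPM in adult libraries, overlapping between stages (log2 0.03 ± 0.20, edgeR adjusted p = 0.912). Adult stromal-like class 6 held 58.0 RPM (44.0 to 74.9) there, adult basal-like and luminal progenitor-like nuclei 24.2 and 22.3 RPM, and mature luminal-like nuclei 8.62 RPM. By span too, adult class 6 (85.2 and 117.6 RPM) was above every other adult set (26.7 to 56.3 RPM), although its Igf2bp3 start held 3.00 RPM. Malsu1 overlaps this end of Igf2bp3. At Igf2bp2, the region at chr16:22118485-22119484 was likewise highest in class 6, at 24.2 RPM in fetal and 41.0 RPM in adult nuclei, against 0.813 to 1.65 RPM in the 3 adult epithelial lineages.

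Hmga2 held both kinds of region. Those at chr10:120416734-120417733 and chr10:120512619-120513618, the second upstream of the gene, were low over all adult nuclei (5.47 and 5.63 RPM against 0.442 and 0.363 RPM, and 3.98 and 4.18 RPM against 0.147 and 0.414 RPM). Their log2 differences were 3.79 ± 0.48 and 3.74 ± 0.57 (edgeR adjusted p = 1.82e-07 and 3.57e-06). At the first of them adult basal-like nuclei kept 2.14 RPM (1.11 to 3.74), which overlaps fetal class 9 (4.11 RPM, 2.92 to 5.62) but not fetal basal-like class 4 (7.35 RPM, 4.96 to 10.5), against 0.102 RPM in adult luminal progenitor-like and 0 in mature luminal-like nuclei. Another, at chr10:120451095-120452094, held 3.15 and 3.54 RPM against 0.442 and 0.466 RPM (log2 2.87 ± 0.55). The region of highest level, at chr10:120421594-120422593, held 25.7 and 23.7 RPM in fetal and 15.1 and 14.8 RPM in adult libraries (log2 0.73 ± 0.19). Its adult level was 21.4 RPM in basal-like, 18.5 RPM in luminal progenitor-like and 10.3 RPM in mature luminal-like nuclei. The next 3 regions were chosen after their values were seen. At chr10:120425733-120426732, adult basal-like and luminal progenitor-like nuclei held 28.3 and 25.2 RPM, above fetal classes 4 and 9 (12.99 and 19.4 RPM), and mature luminal-like nuclei held 0.934 RPM. At chr10:120427853-120428852 the adult levels were 17.3, 29.5 and 5.17 RPM in the same order of lineages. At chr10:120338778-120339777, past the 3′ end, adult basal-like nuclei held 18.5 RPM and luminal progenitor-like nuclei 0.407 RPM, and fetal class 4 (7.11 RPM) was above fetal class 9 (1.58 RPM). None of these 3 was called between stages, with edgeR adjusted p of 0.412, 0.203 and 0.679.

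Distal regions of Igf2bp2 differed in which adult lineage held them. The region at chr16:22107742-22108741 held 11.5 and 10.7 RPM in fetal and 2.36 and 3.78 RPM in adult libraries (log2 1.82 ± 0.29, edgeR adjusted p = 6.71e-06). Among adult nuclei it held 9.98 RPM (7.54 to 12.96) in basal-like, 1.02 RPM in luminal progenitor-like and 2.23 RPM in mature luminal-like classes. Its level in fetal basal-like class 4 was 19.6 RPM. The region at chr16:22152624-22153623 held 12.8 and 8.35 RPM in fetal and 4.93 and 2.80 RPM in adult libraries (log2 1.44 ± 0.30). Here adult basal-like nuclei were lowest, at 0.357 RPM (0.0432 to 1.29), against 5.39 RPM in luminal progenitor-like and 4.38 RPM in mature luminal-like classes, and 6.62 RPM in fetal class 4. The one at chr16:22085282-22086281 again favoured adult basal-like nuclei (6.77 RPM, against 0.813 and 0.503 RPM in the other two lineages), and it held 3.98 and 6.33 RPM against 1.91 and 1.81 RPM (log2 1.52 ± 0.38, not called without fetal replicate 2). A region of similar level at both stages, chr16:22076528-22077527, held 10.3 and 10.3 RPM in fetal and 12.5 and 11.8 RPM in adult libraries (log2 -0.23 ± 0.22, edgeR adjusted p = 0.441). The region at chr16:22067027-22068026, called higher in fetal (log2 0.85 ± 0.24), held 16.6 RPM in adult basal-like, 11.1 RPM in luminal progenitor-like and 0.934 RPM in mature luminal-like nuclei and was chosen after its values were seen. Igf2bp1 had an upstream region at chr11:96017610-96018609, with 24.6 and 19.4 RPM in fetal and 23.8 and 18.9 RPM in adult libraries, which overlapped (log2 0.04 ± 0.19, edgeR adjusted p = 0.903). Within basal-like nuclei it was lower in the adult, at 10.5 and 11.5 RPM against 22.7 and 22.8 RPM in fetal class 4, while adult luminal progenitor-like nuclei (25.8 and 20.6 RPM) overlapped with fetal class 9 (33.9 and 23.0 RPM). Its named region inside the gene, at chr11:95988164-95989163, held 11.8 and 5.32 RPM in fetal and 3.53 and 4.09 RPM in adult libraries (log2 1.08 ± 0.32, edgeR adjusted p = 0.00915, lost without fetal replicate 1).

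At the Igf2 and H19 locus a distal region was higher in the adult libraries; it was chosen after its values were seen. The region at chr7:142621655-142622654, between the 2 genes and counted for both, held 0 and 0.253 RPM in fetal and 2.43 and 1.55 RPM in adult libraries, from 0 and 4 against 33 and 30 reads. Its reads are few and it is given without a test. Most of its adult reads were in mature luminal-like nuclei, at 3.66 RPM (2.73 to 4.82), with 0.203 RPM in adult luminal progenitor-like and 0 in adult basal-like nuclei, which allows up to 0.658 RPM. The 3 regions of H19 called higher in fetal and named by the fixed rule had log2 differences of 1.11 to 1.91, and the start region at chr7:142577574-142578573 had the largest of these 3 (edgeR adjusted p = 0.00202). The other two were lost under DESeq2 and when single libraries were left out. Another called region, at chr7:142575343-142576342 and too low in reads for that rule, held 1.33 and 1.96 RPM in fetal and 0.147 and 0.155 RPM in adult libraries, from 8 and 31 against 2 and 3 reads. With so few reads, and chosen after its values were seen, it is given without a test. The most accessible Igf2 region, at chr7:142659132-142660131 beside its start, held 7.96 and 5.25 RPM in fetal and 5.89 and 3.63 RPM in adult libraries, which overlapped (log2 0.45 ± 0.32, edgeR adjusted p = 0.281).

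**Figure D5:**
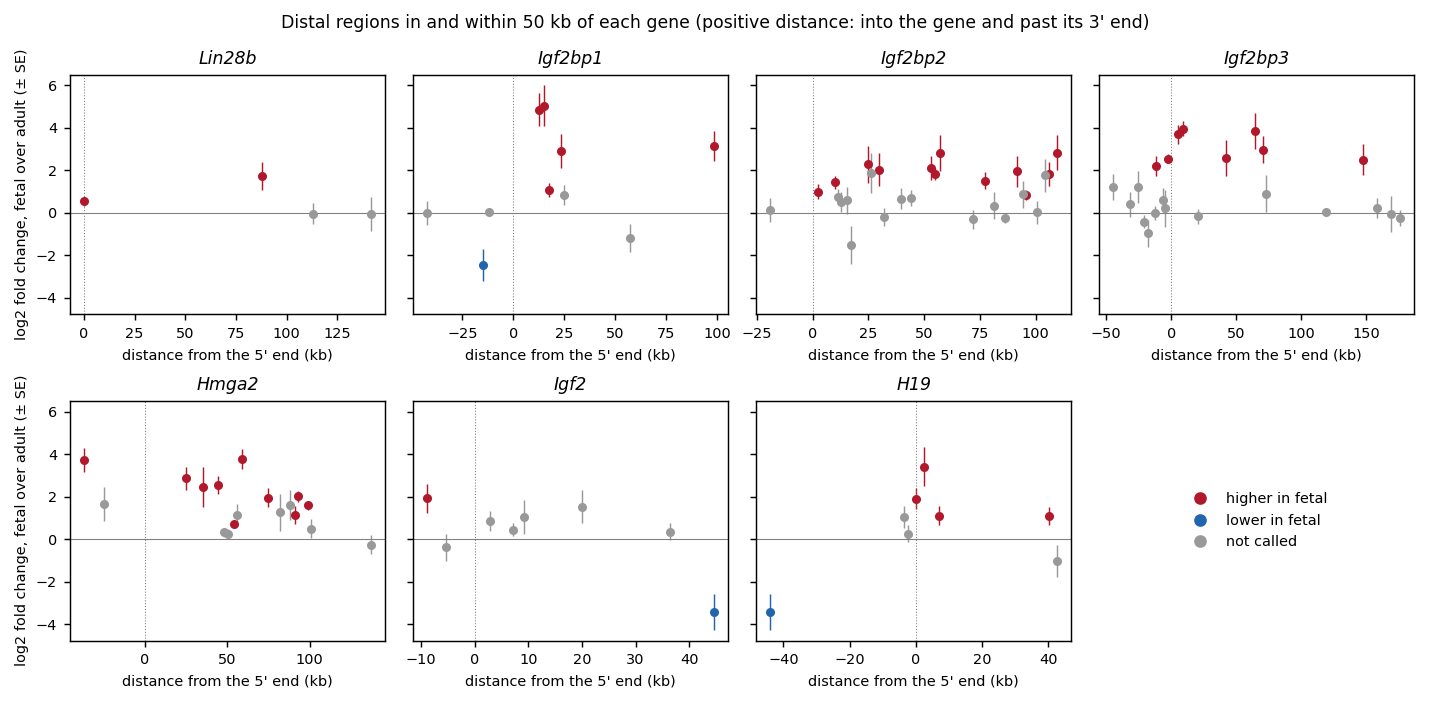
Log2 fold change (fetal over adult, with standard error) of each tested distal region against its distance from the 5′ end (kb; positive into the gene and past its 3′ end), for the 7 members. Red regions were called higher in fetal (42 in all), blue ones lower (2, 1 of them drawn for both Igf2 and H19) and grey ones were not called.

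Cicero scores, the authors' measure of how far 2 regions are open in the same nuclei, were deposited once for nuclei of both stages, so stage and co-accessibility within a stage cannot be told apart in them. Of 6359756 scored pairs, 2.63% reached 0.1, and a listed promoter region had a median of 1 such link. Among listed distal regions, which include the start regions of Lin28b, Igf2 and H19, the median was 0 and 36.7% had such a link. The Hmga2 start region had 12 links of 0.1 or more, 8 of them to regions called higher in fetal. Its highest score, 0.34, was with chr10:120383271-120384270 inside the gene. The Igf2bp3 start region had 5 such links, all to regions called higher in fetal, and the highest was 0.406 with the upstream region 3.3 kb away, followed by 0.287 and 0.191 with the regions 8870 and 4967 bases into the gene. Igf2bp2 had 3 links, the highest of 0.129 to the class 6 region at chr16:22118485-22119484, and another of 0.125 to a region at the Senp2 start. The start regions of Igf2bp1, Lin28b, Igf2 and H19 had no link of 0.1, with highest scores of 0.077, 0.065, 0.018 and 0. Over all regions of a locus, 4.61% of pairs reached 0.1 at Hmga2 (88 of 1909), 1.72% at Igf2bp3, 1.05% at Igf2bp2 and 0.3% to 0.58% at the other members.

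A few adult nuclei carried the class number of a fetal class. There were 25 adult nuclei in classes 4 and 9, with 172735 reads together. They held 25 reads over the Igf2bp3 span, or 144.7 RPM (93.7 to 213.7), against 43.9 and 46.0 RPM in all adult nuclei, and 26 reads over Hmga2, or 150.5 RPM (98.3 to 220.5), near the 169.0 to 174.7 RPM of adult basal-like and luminal progenitor-like nuclei. Over Igf2bp2 they held 6 reads, or 34.7 RPM (12.8 to 75.6), below all adult nuclei (96.0 and 88.9 RPM) and fetal classes 4 and 9 (192.4 and 174.0 RPM). Their Igf2bp3 start window held 2 reads. Of their 25 Igf2bp3 span reads, 18 came from the 10 class 9 nuclei of adult replicate 2 (189.8 RPM). The 9 class 9 nuclei of adult replicate 1 gave 3 reads (71.4 RPM). Conversely, 19 fetal nuclei in adult classes 3, 7 and 8 and 10 in classes 2 and 11 had 0 reads over the Igf2bp3 span, which allows up to 59.6 and 67.8 RPM. The same reads had placed these nuclei in their classes, so their levels describe the sorting of nuclei into classes. Of the 5′ ends described, adult nuclei in the adult classes kept part of the Lin28b start. They kept part of the Hmga2 start in basal-like nuclei, where the interval overlaps those of all fetal classes. Adult luminal progenitor-like nuclei overlapped only fetal classes 13 and 6 at that start. The Igf2bp2 start was kept at levels overlapping the fetal classes in adult mature luminal-like nuclei and in adult classes 6 and 10. There too, adult luminal progenitor-like nuclei overlapped only fetal classes 13 and 6. At the Igf2bp1 start adult classes 6 and 14 lay within the fetal range on 6 reads each. Adult luminal progenitor-like nuclei overlapped all fetal classes but 5 there, and mature luminal-like nuclei overlapped fetal classes 12, 13 and 6. At the Igf2 start at 142658804, adult mature luminal-like nuclei overlapped fetal classes 4, 9, 12 and 13. At the H19 start, adult basal-like and mature luminal-like nuclei overlapped fetal classes 4 and 9, on 8 and 20 reads. Adult nuclei also kept part of the Hmga2 span in basal-like and luminal progenitor-like classes, below fetal classes 4, 5 and 9. By Igf2bp2 span, adult mature luminal-like and basal-like nuclei overlapped fetal class 5, and adult class 6 lay within the fetal range.

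Genes of related pathways, from lists fixed with earlier results of these data known, are given for context. Of 14 imprinted growth genes tested, 11 were called higher in fetal and 2 lower (Dcn, a matrix proteoglycan, and Phlda2, a placental growth inhibitor), with a median log2 difference of 0.60, where 22.9% of all genes were called and 11.0% were higher in fetal. Meg3, an imprinted long non-coding RNA, was at 26.0 and 25.9 RPM in fetal and 5.00 and 5.08 RPM in adult libraries (log2 2.33 ± 0.21, edgeR adjusted p = 2.59e-08), and Dlk1, its neighbour encoding a Notch-like membrane protein, at 1.45 ± 0.27. Of 14 genes of the IGF axis tested, 4 were called higher and 1 lower, beside 11.0% of all genes higher and 22.9% called either way. The 4 higher were Igf2os and the IGF-binding proteins Igfbp2 (1.56 ± 0.16), Igfbp3 (1.15 ± 0.18) and Igfbp4 (0.69 ± 0.19). Igf2os overlaps the member Igf2 and shares its reads, so its call is not independent of that member. Irs2, which relays insulin and IGF receptor signals, was lower (-0.42 ± 0.11). Of 14 other oncofetal or embryonic growth genes tested, 5 were called higher and 0 lower, beside 11.0% of all genes higher: Lin28a, Sall4 and Mycn, which act in pluripotent or embryonic cells, Gpc3, a glypican, and Cldn6, an embryonic tight junction protein.

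Over 19 sums of class and library with at least 100 nuclei, the members did not share 1 pattern. These correlations are descriptions, and the sums share libraries and depth. The highest Pearson correlation between 2 members was 0.759, for Igf2bp1 and Igf2bp3, and the lowest was 0.08, for Hmga2 and Igf2. Among 24390 genes, Hmga2 was most like Shisa8 (0.969), BC006965 (0.962) and Gm10863 (0.959), and Igf2bp3 most like Fgf20 (0.909) and Tmprss5 (0.897). Igf2bp1 was closest to Gm34017 (0.904) and to Hoxc6 and Kcnt1 (0.883 each), Igf2 to Col26a1 (0.933), Grin2c (0.894) and Gm41945 (0.892), and Igf2bp2 to Coro1c (0.859), Gm32935 (0.858) and Gm42005 (0.856). For Lin28b they were Gm13404 (0.903), 4930426D05Rik (0.879) and Gm42163 (0.873), and for H19 they were Gm36740 (0.86), Gm37762 (0.858) and 4930590J08Rik (0.856).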

How the data were processed

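Nuclei were profiled by single-nucleus ATAC-seq in 2 fetal and 2 adult libraries. The submitters' processing notes name Bowtie2, MACS2, bedtools and the build mm10, without versions or roles; duplicate removal and any shift of cut sites are not given in the sources used here. The authors deposited lists of single reads with a nucleus barcode, promoter and distal regions of 1000 bases, a count of reads per nucleus with a class number, and a Cicero co-accessibility score per pair of regions; how the regions and classes were made is not stated in the file headers. The Cicero gene scores per nucleus were not used, since their columns name no sample. 0 columns of per-sample values were left unmapped.

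From these, reads of listed nuclei (6028168 to 19304830 per library), counted where at least 1 base overlapped a feature, were summed per library over gene spans with 2000 bases on either side, over windows within 500 bases of starts, and over the deposited regions. Levels are reads per 1000000 reads of the listed nuclei of that set and library (RPM). Stages were compared in edgeR 4.0.16 (R 4.3.3; quasi-likelihood test, TMM scaling, a mean of at least 10 reads, Benjamini-Hochberg threshold 0.05). The SE is the log2 difference over the root of F, SD and ranges are over 2 libraries, and Poisson intervals are exact at 95% and cover counting error only. They treat reads as independent. Small read counts were mostly even, so this may not hold and the intervals may be too narrow. On simulated counts the fit recovered 200 changed genes, all with a mean of at least 50 reads. Their change was larger than that of any member span but H19. Smaller changes and changed genes with fewer reads were not simulated. DESeq2 1.42.0 and other filters, windows and scalings were alternatives, and the lineage difference test was added after the data had been seen.

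Genes and 250-base promoter sequences came from RefSeq tables (GRCm38.p6), which hold no strand for genes. Starts are those of the promoter table plus the 5′ end of the span, and both ends where the strand is unknown (Igf2bp1 and H19, which have no promoter entry). All 7 members are named whatever their values. Named distal regions are up to 3 per member with the largest called difference, a mean of at least 20 reads and no overlap between stages, plus the one of highest level. Similar genes are the 3 of highest correlation of log2(CPM + 1), of which 1 is not reported here. The members, lists and classes compared were chosen with earlier results of these data known.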

Additional observations from a re-analysis of the deposited data

How the results depend on the processing

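Members kept their direction under every alternative tried for spans, start windows and promoter regions. The span calls held for all 7 members under 10 alternatives, and with 1 library left out Lin28b or Igf2 was lost as given above. The cause was not tested for any change below. Genes called by span (7137) ranged from 4381 to 7203 with 1 library left out. Start windows called (6671) were 4143 under DESeq2 and 3894 to 4888 with 1 library left out. Promoter regions called (3988) were 2622 under DESeq2 and 2560 to 3068 with 1 library left out. Distal regions called (42924) were 24872 under DESeq2, 15304 with a mean of at least 50 reads and 30376 to 42176 with 1 library left out; those called higher near the members (42) were 12 with at least 50 reads and 23 to 37 with 1 library left out. Basal-like calls (1430) were 414 under DESeq2 and 831 to 1308 with 1 library left out, and luminal progenitor-like calls (4258) were 2218 under DESeq2 and 2064 to 3766. The region upstream of Igf2bp1, near 0 throughout, changed sign to -0.043 with no filter on low counts and ran from -0.176 to 0.299 with 1 library left out. Links of the start regions (20 at a score of 0.1) were 5 at 0.25 and 46 at 0.05.

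The labels give the stages the same replicate numbers but no shared litter or day. Across 24704 genes, the difference between replicates 1 and 2 in fetal correlated at 0.277 with that in adult libraries, from 2 pairs only. With a replicate block 10322 genes were called by span, all 7 members among them, 6967 start windows, and 2165 genes in basal-like nuclei, where Hmga2 then also passed (edgeR adjusted p = 0.0412). The Igf2bp2 promoter region passed with the block as well (edgeR adjusted p = 0.0341). Depth limits the smaller classes: fetal class 6 and adult classes 6, 10 and 14 gave 0 to 39 reads per start, and H19 had 12 to 53 per library.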
